A study of Homo sapiens with 2 samples.

Results

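The core histone genes encode H2A, H2B, H3 and H4, the proteins around which DNA is wrapped in the nucleosome. They were taken as the genes whose symbols on the array begin with HIST1 to HIST4 followed by H2A, H2B, H3 or H4, or with H2AF or H3F. Of 77 such symbols, 42 had at least 1 probe set that names no other gene, out of 16920 genes measured in this way. These 42 genes comprised 35 clustered genes (10 H2A, 15 H2B, 6 H3 and 4 H4) and 7 genes of replacement variants. The other 35 symbols, 31 of them clustered, were represented only by probe sets shared among several genes and are described as shared probe sets.

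Transcripts were measured in a human line from a colorectal cancer, HCT116 (here HCT116-WT), and in HCT116-DKO, a line derived from it with the genotype DNMT1-/- DNMT3b -/-. The disrupted genes encode a methyltransferase that copies DNA methylation after replication and one that sets new methylation, and the comparison asks how transcription differs when both are disrupted. Untreated cells of both lines were grown in McCoy's 5A medium with serum, and their total RNA, carrying a biotin label, was hybridized to exon arrays of Affymetrix. There was 1 array per line (2 arrays), so no difference below has a replicate check, no test was possible, and the DKO data rest on a single line.

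Clustered histone genes lie in the HIST1 cluster on chromosome 6 and in the HIST2 and HIST3 clusters on chromosome 1. They are transcribed mainly in S phase, and their mRNAs usually lack introns and end in a stem-loop in place of a poly(A) tail, whose processing depends on the stem-loop binding protein SLBP. Replacement variants such as H2A.Z, H2A.X, macroH2A and H3.3 are encoded by separate genes, are produced throughout the cell cycle and have mostly polyadenylated mRNAs. Members of a clustered family encode nearly identical proteins from similar coding sequences, so that a short probe often detects several of them.

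The level of a gene is given as log2 signal summarized over its own probe sets, and a difference is HCT116-DKO minus HCT116-WT on the log2 scale. Olfactory receptor genes, which are mostly silent outside the olfactory epithelium, gave the background, with 95% of their 286 levels under 7.08 in HCT116-WT and under 7.30 in HCT116-DKO. A gene was counted as higher or lower when its level differed by at least 1, at least 75% of its probe sets differed in that direction, and its level exceeded background in the brighter array. By this rule 446 of 16920 genes (2.64%) were higher in HCT116-DKO and 92 (0.544%) were lower, with a median difference of 0.02 over all genes. Both targeted genes were lower, DNMT1 (10.63 and 9.36, HCT116-WT first as in all pairs of levels below) and DNMT3B (8.32 and 6.91). Of 12 colon epithelial markers 6 were above background in each array, among them KRT8 (13.02 and 13.33) and KRT18 (12.36 and 12.79), and 0 were changed. Of 6 blood cell markers measured 1 exceeded background, in HCT116-WT. Of 7 fibroblast markers 4 were above background in each array and THY1 was higher in HCT116-DKO (6.23 and 7.64), whose bearing on the histone values was not tested.

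Core histone genes carried few probe sets of their own. Of the 42 members 16 (38.1%) had a single probe set, against 294 of all 16920 genes (1.74%), and the clustered members had a median of 2 probe sets against 13 over all genes. Among the 294 genes with 1 probe set, 5 (1.70%) were higher and 4 (1.36%) were lower in HCT116-DKO. Of the 42 members, 22 were above background in both arrays, 2 in HCT116-WT only, 1 in HCT116-DKO only and 17 in neither. All 22 members above background in both arrays differed by less than 1, and 19 of them (86.4%) by less than 0.5, compared with 88.9% of the 11059 genes above background in both arrays.

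Of the 35 clustered genes, HIST2H2BF was higher in HCT116-DKO (1 of 35, 2.86%, where 2.64% of all genes were higher), HIST1H2AH and HIST1H2BK were lower (5.71%, where 0.544% of all genes were lower), and 32 were not changed. Their median difference was -0.00, with 17 genes of positive and 18 of negative sign. The median was -0.16 for H2A, 0.03 for H2B, -0.24 for H3 and 0.17 for H4, values that include genes below background in both arrays (4 of 10 H2A, 5 of 15 H2B, 4 of 6 H3 and 3 of 4 H4). All 3 genes that passed the rule crossed the background between the arrays, and all 3 rested on 1 or 2 probe sets. Levels below background have no order, so for such genes the fold is given as a lower bound against background. For a value from a single probe set this bound uses the 95th percentile of single olfactory receptor probe sets, 7.65 in HCT116-WT and 7.68 in HCT116-DKO. Otherwise a probe set is called above or below background by the values from gene levels, 7.08 and 7.30.

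**Figure D1:**
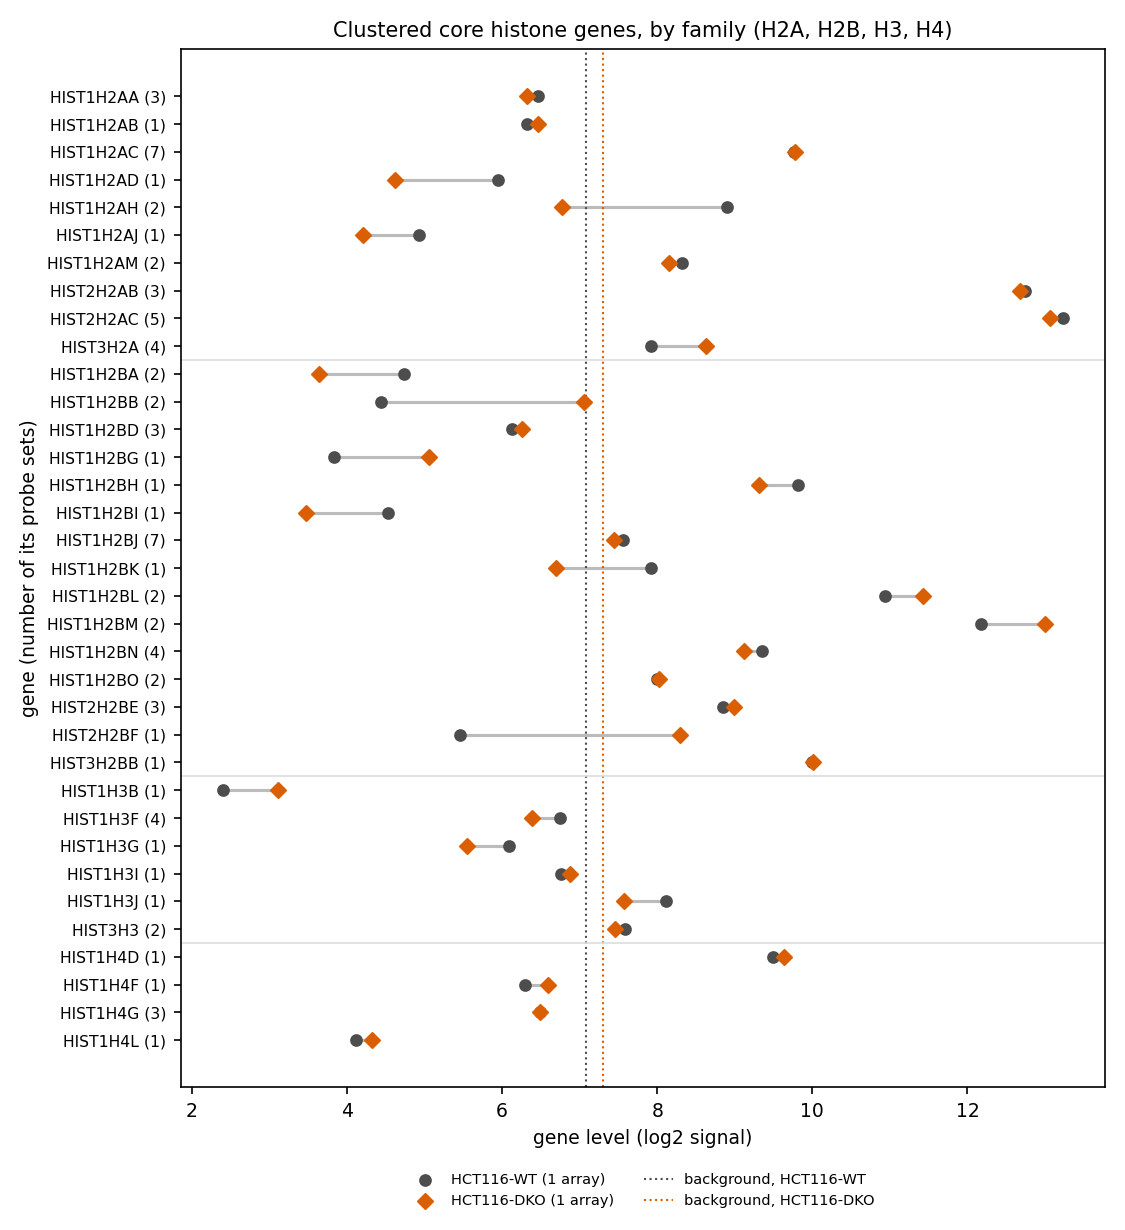
Level of each clustered core histone gene (log2 signal, horizontal axis) in HCT116-WT (circles) and HCT116-DKO (diamonds), 1 array each, grouped from top to bottom into H2A, H2B, H3 and H4, with the number of probe sets in parentheses and the background of each array as a dotted line. HIST2H2BF crosses the background upward, and HIST1H2AH and HIST1H2BK cross it downward. Each of the 16 genes above background in both arrays differs by less than 1 between the arrays.

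The promoters of 4 H2B genes are shown because these genes encode the same protein family and behaved differently: HIST2H2BF was higher, HIST1H2BK was lower, HIST1H2BB was below background in both arrays with a large positive difference, and HIST2H2BE was above background in both arrays with near-equal gene levels, though its probe sets varied. Each sequence is the RefSeq window of 250 bases before to 50 bases after the start of the gene (build GRCh38.p14, minus strand, 5′ to 3′). Capitals mark TATAA and CCAAT together with the octamer ATTTGCAT, which is the site of POU-domain factors in H2B promoters, on either strand (on the other strand they read TTATA and ATTGG for the former and ATGCAAAT for the octamer).
HIST2H2BF, chr1:149812321-149812620: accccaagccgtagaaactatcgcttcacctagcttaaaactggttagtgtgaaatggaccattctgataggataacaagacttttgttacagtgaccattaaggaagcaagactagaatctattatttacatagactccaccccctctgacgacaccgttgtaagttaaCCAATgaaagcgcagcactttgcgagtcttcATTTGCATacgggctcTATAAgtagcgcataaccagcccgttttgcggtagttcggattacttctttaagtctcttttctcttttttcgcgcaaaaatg
HIST1H2BK, chr6:27146809-27147108: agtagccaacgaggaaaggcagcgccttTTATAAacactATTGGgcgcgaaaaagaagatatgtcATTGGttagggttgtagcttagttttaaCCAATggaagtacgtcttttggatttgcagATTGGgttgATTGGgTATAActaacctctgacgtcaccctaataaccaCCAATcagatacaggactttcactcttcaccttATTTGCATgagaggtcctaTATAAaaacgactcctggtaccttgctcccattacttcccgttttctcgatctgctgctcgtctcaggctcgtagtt
HIST1H2BB, chr6:26043664-26043963: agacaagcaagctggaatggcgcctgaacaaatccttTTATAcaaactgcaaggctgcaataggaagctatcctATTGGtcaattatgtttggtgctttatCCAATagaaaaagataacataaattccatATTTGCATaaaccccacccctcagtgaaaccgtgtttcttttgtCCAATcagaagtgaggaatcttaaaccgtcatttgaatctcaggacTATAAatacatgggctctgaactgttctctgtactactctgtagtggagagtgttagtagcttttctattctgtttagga
HIST2H2BE, chr1:149886633-149886932: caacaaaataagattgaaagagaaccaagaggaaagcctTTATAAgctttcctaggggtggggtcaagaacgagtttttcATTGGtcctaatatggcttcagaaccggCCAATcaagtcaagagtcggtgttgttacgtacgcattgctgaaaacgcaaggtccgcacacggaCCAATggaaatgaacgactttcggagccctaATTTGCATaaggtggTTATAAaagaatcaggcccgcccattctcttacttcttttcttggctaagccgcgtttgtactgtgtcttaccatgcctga
All 4 windows hold the octamer, a CCAAT and a TATAA in one orientation or the other. TATAA and its reverse TTATA overlap in TTATAA, so only presence is compared. The number of CpG dinucleotides was 13 in HIST2H2BF, 11 in HIST1H2BK, 3 in HIST1H2BB and 13 in HIST2H2BE.

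The H2B family held both directions. The only probe set of HIST2H2BF read 5.46 in HCT116-WT and 8.29 in HCT116-DKO. This difference of 2.83 was at least 1.56-fold. HIST1H2BK, also with 1 probe set, was at 7.91 in HCT116-WT and 6.70 in HCT116-DKO, which is -1.21 on the log2 scale or at least 1.17-fold lower. In RNA from a whole culture, fewer cells with a transcript and less of it per cell cannot be told apart. HIST1H2BM had 12.18 and 12.99, a difference of 0.82, with both probe sets higher (0.66 and 0.98). This was the largest difference among the 22 members above background in both arrays, and it stayed under the rule's size of 1. HIST1H2BL had 10.94 and 11.43, but its 2 probe sets differed by 0.01 and 0.98. HIST1H2BH, with 1 probe set, had 9.81 and 9.32 (-0.49). HIST3H2BB (9.99 and 10.01), HIST2H2BE (8.85 and 8.99), HIST1H2BN (9.35 and 9.12), HIST1H2BO (8.00 and 8.02) and HIST1H2BJ (7.56 and 7.44) differed by less than 0.25, the last with 7 probe sets spread between -0.45 and 0.87. The 3 probe sets of HIST2H2BE differed by 0.75, -0.10 and 0.14, and with shared probe sets kept the gene differed by 0.44.

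HIST1H2BB was below background in both arrays by its gene level, 4.43 in HCT116-WT against 7.05 in HCT116-DKO, and was therefore not counted despite a difference of 2.62. Its 2 probe sets both differed upward, from 4.49 to 6.53 and from 4.37 to 7.58, and the latter exceeded background in HCT116-DKO. HIST1H2BD was listed at 6.13 and 6.25, while its 3 probe sets differed by -0.27, 0.12 and 2.06. The first of these was bright in both arrays (11.58 and 11.31), so the summary below background did not describe all parts of this gene. HIST1H2BG (3.84 and 5.06) and HIST1H2BI (4.53 and 3.48) were below background in both arrays, each with 1 probe set. These 4 genes were singled out after their values were seen. HIST1H2BA, the H2B of testis, was also below background, at 4.73 and 3.64.

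In the H2A family HIST1H2AH was lower. Its level of 8.90 in HCT116-WT compared with 6.77 in HCT116-DKO, which is -2.13 on the log2 scale or at least 3.03-fold lower. One of its 2 probe sets was at 11.05 and 8.47, above background in both arrays, and the other at 6.75 and 5.06, below background in both. Both therefore differed downward, by -2.58 and -1.68. None of the 14 shared probe sets that also name HIST1H2AH was lower by the rule (median -0.17, from -0.50 to 1.92), and with them included the gene differed by -0.20 and did not pass it. HIST3H2A had 7.93 and 8.63, a difference of 0.71, with all 4 probe sets higher (0.29 to 0.99). HIST2H2AC, at 13.23 and 13.06 over 5 probe sets, and HIST2H2AB, at 12.74 and 12.68 over 3 probe sets, had near-equal levels. HIST1H2AC was at 9.77 and 9.78 over 7 probe sets. Of these 7, the first 4 in order of their IDs differed by -0.07 to 0.04, and a later one differed by 1.24 (7.60 in HCT116-WT and 8.84 in HCT116-DKO). HIST1H2AM had 8.32 and 8.15. HIST1H2AA, another testis histone, had a gene level of 6.46 and 6.31, although 1 of its 3 probe sets was above background in both arrays (7.67 and 7.52). HIST1H2AB, HIST1H2AD and HIST1H2AJ, with 1 probe set each, were below background in both arrays, with differences of 0.14, -1.33 and -0.73.

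The H3 and H4 families had few genes with probe sets of their own. None of them was changed, which lies near the share over all genes (2.64% higher and 0.544% lower). HIST1H3J had 8.11 and 7.57 from 1 probe set (-0.54). HIST3H3, an H3 gene of testis, had 7.59 and 7.45, its 2 probe sets differing by -0.57 and 0.31. HIST1H3I (6.76 and 6.88), HIST1H3B and HIST1H3G were below background in both arrays. So was the gene level of HIST1H3F (6.74 and 6.38), while 1 of its 4 probe sets was above background in both arrays (8.26 and 8.19) and another in HCT116-WT (8.15 and 7.09). HIST1H4D was at 9.50 and 9.63 from 1 probe set, the only H4 member with a gene level above background. HIST1H4F (6.29 and 6.59), HIST1H4G (6.49 in both arrays) and HIST1H4L (4.12 and 4.32) had levels below it, and 1 of the 3 probe sets of HIST1H4G was above it at 7.49 in both arrays. Of the 17 members with gene levels below background in both arrays, 6 held a probe set above it in at least 1 array. For HIST1H2BB (7.58 in HCT116-DKO) and HIST1H4G this probe set was below the background of single olfactory receptor probe sets (7.65 and 7.68).

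The 7 replacement variants included 0 higher and 0 lower genes, where 2.64% and 0.544% of all genes were, so a count of 0 of 7 lies near the share over all genes. Their median difference was 0.11, with a range of -0.23 to 0.53. H2AFZ, which encodes H2A.Z, was at 12.57 and 12.46 over 5 probe sets, all slightly lower (-0.39 to -0.02). H2AFV encodes H2A.Z.2 and was at 10.65 and 10.98, with 8 of 9 probe sets higher. Of these, 2 have IDs apart from the other 7, in a range where all 76 named neighbouring probe sets belong to genes of chromosome 15, and they differed by 0.20 and 0.67. H2AFY and H2AFY2 encode the macroH2A proteins, which carry a macro domain beside the histone fold. H2AFY was at 11.07 and 10.84, with 11 of 12 probe sets lower, and H2AFY2 was at 10.68 and 10.59, with 6 of 13 higher. H3F3B, one of the genes for H3.3, was at 12.91 and 13.02 from 2 probe sets. The IDs of these 2 lie far from those of the shared probe sets listed first for H3F3B. Whether they lie at this gene was not tested.

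H2AFX and H2AFJ varied among their probe sets. H2AFX encodes H2A.X, the variant phosphorylated at DNA breaks, and its transcript can end either at a stem-loop or in a poly(A) tail. Its gene level was 9.56 and 10.04 (0.48), and its 7 probe sets in order of their IDs differed by 1.15, 1.17, 0.88, -0.18, 0.48, 0.39 and 0.17. All 7 were above background, and the first pair had levels of 10.49 and 10.84 in HCT116-WT and 11.64 and 12.01 in HCT116-DKO. H2AFJ, at 6.74 and 7.27, was the only variant below background in both arrays. Its 8 probe sets differed by 0.40, -0.16, 0.30, -0.52, 1.04, 1.53, 0.78 and 0.66 in order of their IDs. The brightest of these 8 probe sets was the one that differed downward most (12.02 and 11.50), and those with the largest upward differences were below background in HCT116-WT (6.41 and 6.31) and above it in HCT116-DKO (7.46 and 7.85).

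**Figure D2:**
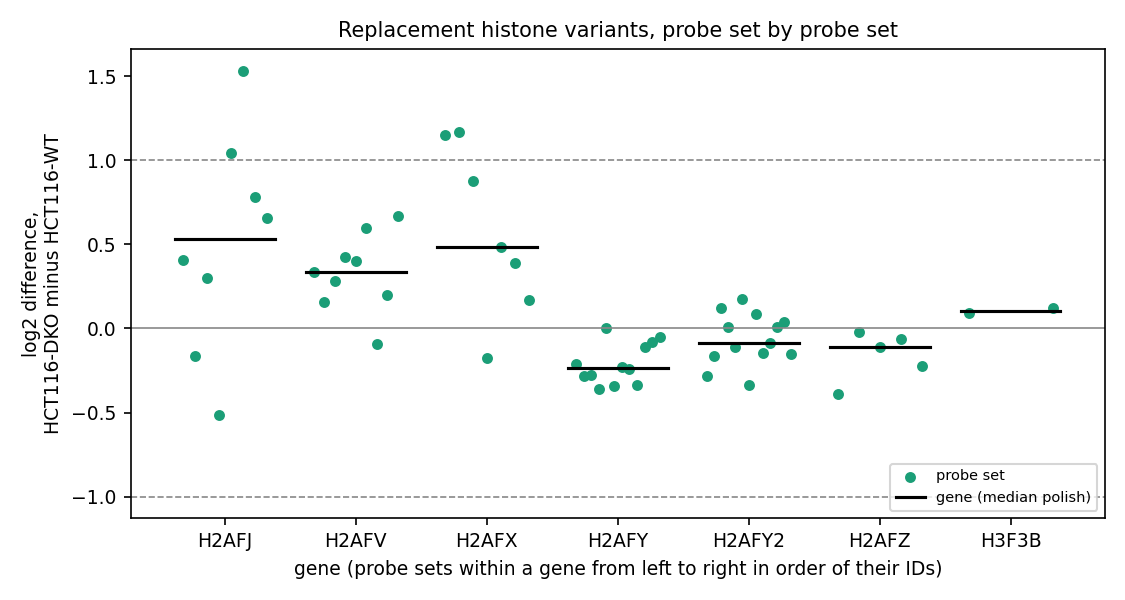
Log2 difference of every probe set of the 7 replacement variant genes (points, in order of probe set ID within a gene), HCT116-DKO minus HCT116-WT, with the gene value as a black bar and the size of 1 as dashed lines. H2AFY, H2AFY2, H2AFZ and H3F3B stay between -0.39 and 0.17, whereas H2AFX reaches 1.17 and H2AFJ 1.53.

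Clustered genes with no probe set of their own can be seen only through shared probe sets. There were 133 shared probe sets naming 54 core histone symbols, against 134 probe sets of single members. Since a shared probe set can carry the signal of every gene it names, its value is not assigned to any of them. A probe set was counted on its own, with the same size and the same background. Of the 133 shared probe sets 9 (6.77%) were higher in HCT116-DKO and 2 (1.5%) were lower, where among all 8947 probe sets that name several genes the shares were 5.24% and 1.02%. The median difference of the shared histone probe sets was 0.002, and 67 were positive.

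The largest single difference belonged to 1 of 14 probe sets that name the HIST1 H3 genes. The one listed first for HIST1H3C read 4.79 in HCT116-WT against 11.92 in HCT116-DKO, and this difference of 7.12 was at least 19.2-fold. A pair listed first for HIST1H3H was higher by 1.41 (8.94 and 10.34) and 1.20 (8.43 and 9.64). The other 11 of these 14 probe sets were not changed, although the annotation names the same 11 genes for them.

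A similar split was seen for HIST1H2AB and HIST1H2AE, which share 6 probe sets. The 3 listed first for HIST1H2AE differed by 1.05, 5.05 and 3.71, the middle one from 7.78 to 12.83, which is 33.2-fold higher, and the last from 4.72 to 8.43. The first of them did not exceed background (6.08 and 7.12). The 3 listed first for HIST1H2AB differed by -0.15, 0.37 and 0.06, with levels of 8.86 to 11.31 in HCT116-WT. The split followed the IDs, with all 3 of the former in the lower-numbered block of HIST1 IDs and all 3 of the latter in the higher-numbered block.

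Shared probe sets also name HIST2H2BF and HIST1H2BK, counted above. The 3 that name HIST2H2BF together with HIST2H3PS2, an H3 gene, and in 1 case also HIST2H2BA, were each higher, by 2.72 (5.45 and 8.17), 2.10 (5.81 and 7.91) and 2.97 (5.63 and 8.61), next to 2.83 for the probe set of HIST2H2BF alone. The 2 that name HIST1H2BK together with H2BFS, an H2B-like gene, were lower, from 11.54 to 8.78 (6.77-fold) and from 11.30 to 8.44 (7.24-fold). Both stayed above background in both arrays, unlike the probe set of HIST1H2BK alone. One of 7 probe sets naming HIST1H2BC, HIST1H2BE, HIST1H2BF, HIST1H2BG and HIST1H2BI was higher, from 7.05 to 9.29 (2.24), and it is listed first for HIST1H2BG. Another of these 7 differed by -1.79 below background, and the other 5 lay between -0.45 and 0.34.

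The remaining groups held no changed probe set. The 40 probe sets naming 14 H4 symbols had a median of 0.04, and the only one beyond 1 (1.96) was below background in both arrays. The 26 probe sets of H3F3A and H3F3B, which both encode H3.3, were all above background and ranged from -0.50 to 0.17. The 18 probe sets naming HIST1H2AG to HIST1H2AM had a median of 0.06, and the 5 of HIST2H3A, HIST2H3C and HIST2H3D a median of -0.19. The 8 naming HIST2H2AA3 and HIST2H2AA4 had a median of -0.11, with 6 negative and 2 positive. The positive ones were at 0.76 and 0.84, and the latter also names HIST2H2BE. The 3 probe sets of H2AFB1, H2AFB2 and H2AFB3, the H2A.B variants of testis, differed by -0.79 to -0.03, and 1 of them was above background. The single probe set of HIST1H2AD and HIST1H3D had 11.75 and 11.56.

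**Figure D3:**
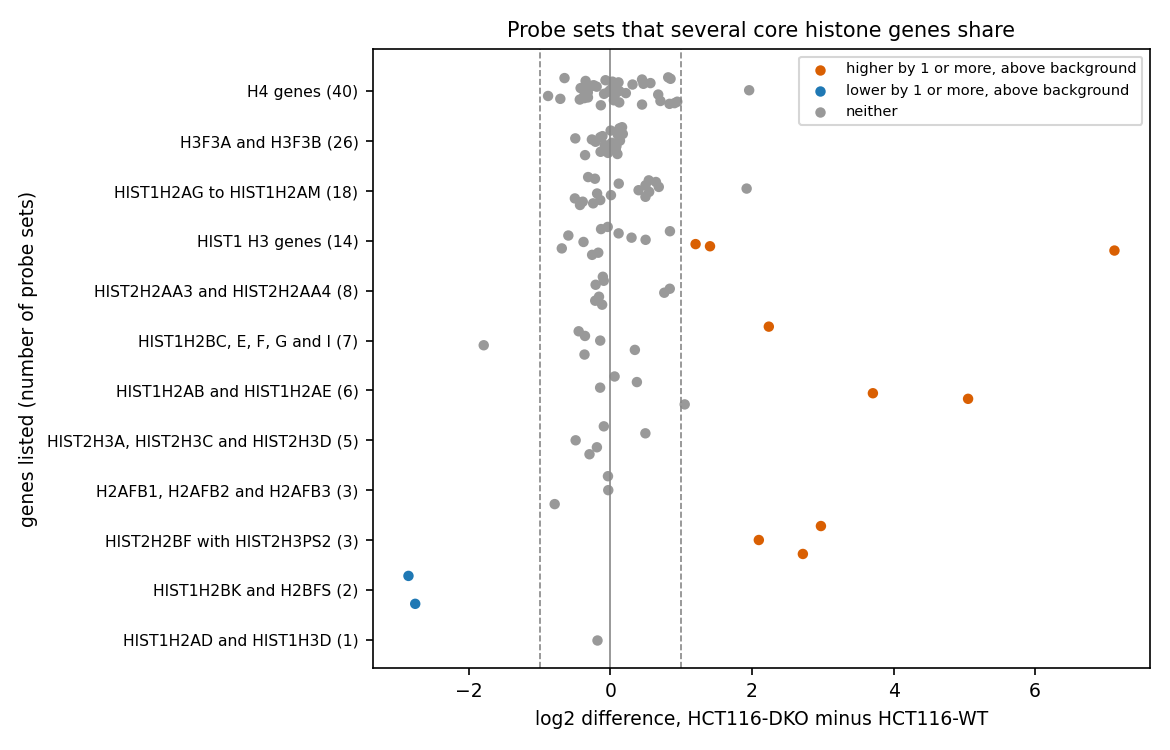
Log2 difference of each probe set shared among core histone genes (points), HCT116-DKO minus HCT116-WT, by the genes it names, with the number of probe sets in parentheses and orange or blue for probe sets past the size of 1 and above background. The 9 higher probe sets belong to 4 groups and the 2 lower ones to HIST1H2BK and H2BFS, and most others lie near 0.

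Across the HIST1 cluster the probe sets past the rule were scattered among unchanged ones. The IDs of HIST1 probe sets fall into 2 blocks that follow the strand of the genes. In the lower-numbered block the 9 plus-strand members came in the order of their gene starts with 0 exceptions, and among the 16 minus-strand members 1 was out of order. That one was HIST1H3F, with 3 of its 4 probe sets in the block of the plus strand around a shared probe set listed first for HIST1H3E. The positions of the probes themselves were not used here.

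**Figure D4:**
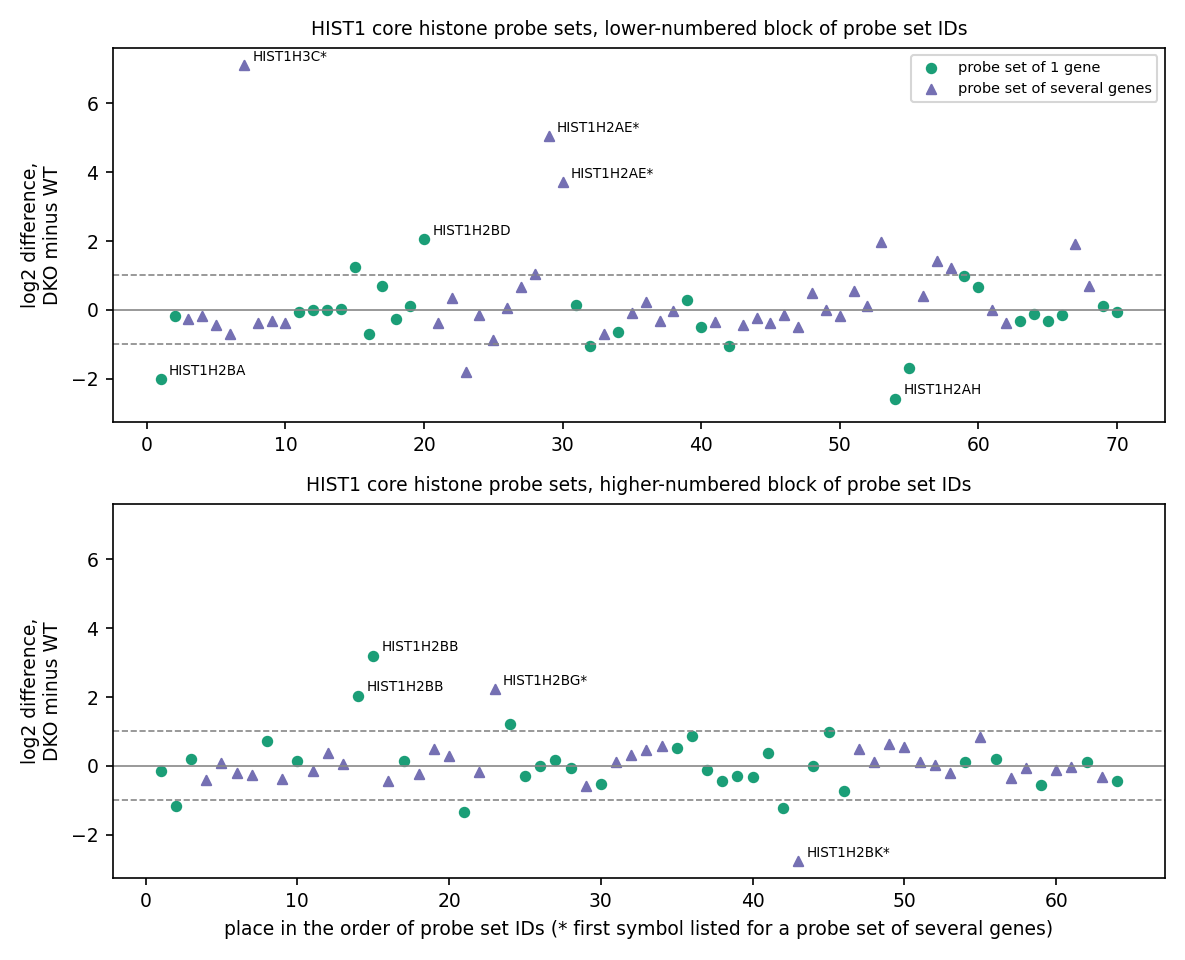
Log2 difference, HCT116-DKO minus HCT116-WT, of the HIST1 core histone probe sets in the order of their IDs, in the lower-numbered block (top) and the higher-numbered block (bottom), with circles for probe sets of 1 gene and triangles for shared ones. Named points differ by more than 2, and the probe sets listed first for HIST1H3C (7.12) and HIST1H2AE (5.05 and 3.71) stand apart from most of the others.

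Many H2A and H2B genes are arranged head to head, on opposite strands with their starts close together. There were 14 neighbouring pairs of core histone genes on opposite strands with starts at most 2000 bases apart, 11 of them under 300 bases. Both partners had probe sets of their own in 7 pairs, and both were above background in both arrays in 3 of them. HIST1H2AH, with no entry among the promoters that gave the strands, was not among the genes paired. HIST3H2A and HIST3H2BB, with starts 230 bases apart, differed by 0.71 and 0.02, HIST2H2BE and HIST2H2AC, 236 bases apart, by 0.14 and -0.16, and HIST1H2AM and HIST1H2BO, 240 bases apart, by -0.17 and 0.03. HIST1H2AJ and HIST1H2BM, 245 bases apart, differed by -0.73 and 0.82, the former below background. HIST1H2BB is paired at 1671 bases with HIST1H3C, and HIST1H2BG at 233 bases with HIST1H2AE, partners seen only through shared probe sets. Both of those partners were listed first for the shared probe sets with the largest upward differences. The nearer end of HIST1H2AH lies 248 bases from the start of HIST1H2BK, so that the 2 lower clustered genes lie close together. The 19 measured genes within the span of the HIST1 cluster that encode no histone, such as the butyrophilin genes, held 0 changed genes. Over all genes 2.64% were higher and 0.544% were lower, so a count of 0 of 19 lies near that share. The median of the 19 was 0.02, with a range of -0.51 to 0.68. Genes of H1 linker histones also lie in this span and are not among the 19. Of these, H1-1 (5.86) and H1-5 (2.81) were higher, while H1-2, H1-3, H1-4 and H1-6 were not changed.

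The clustered families differed in their promoter letters. TATAA was present in 20.4% of all 35116 promoters, in 94.4% of the 18 clustered H2B, 93.8% of the 16 H2A, 100% of the 13 H3 and 84.6% of the 13 H4 promoters, and in 27.3% of the 11 promoters of replacement variants. The octamer was present in 1.77% of all promoters, in 77.8% of H2B and 68.8% of H2A promoters, in 7.69% of H3 and in 0 of the H4 promoters. CCAAT was present in 34.6% of all promoters, in all of the clustered H2A, H2B and H3 promoters and in 23.1% of the H4 promoters. The median number of CpG dinucleotides was 14 over all promoters, 13 for H2A, 10 for H2B, 9 for H3, 16 for H4 and 22 for replacement variants. Over the 32 clustered members with a promoter, the CpG number and the difference had a Spearman coefficient of -0.04, and over the 17 of these above background in at least 1 array it was 0.16. Neighbouring members of a head-to-head pair share part of this sequence, so these points are not independent.

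Genes that serve the histones were measured alongside. All 25 genes listed for transcription and 3′ end processing of histone mRNA were above background in both arrays, 0 were changed, and their median difference was 0.05. Among them CPSF2 (11.24 and 11.13) and CPSF3 (10.95 and 10.97) belong to the machinery that cleaves the mRNA. SLBP (10.49 and 10.30) and NPAT, the coactivator of clustered histone genes (9.90 and 9.95), were singled out after their values were seen. Of 34 histone chaperones and exchange factors 0 were changed, with a median of -0.06, including NPM1 (13.20 and 12.90) and RBBP4 (12.25 and 12.44). Of 24 S phase genes 0 were changed, with a median of 0.00, including TYMS (11.83 and 12.05), which makes thymidylate, and the replicative helicase subunit MCM5 (11.55 and 11.88). Of 22 enzymes that modify core histone residues, a list that also holds H2AX itself, 0 were changed, with a median of 0.05, including the deacetylase HDAC1 (11.72 and 11.86) and the Polycomb subunit BMI1 (10.76 and 10.60). Over all genes 2.64% were higher and 0.544% were lower, so a count of 0 in lists of this size lies near that share.

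Histones outside the rule by symbol gave few measured genes. Of 10 linker histone genes, which encode the H1 proteins that bind the DNA between nucleosomes, 2 were higher in HCT116-DKO and 0 were lower (2.64% and 0.544% over all genes). H1-1 was at 6.37 and 12.22, but 1 of its 4 probe sets went the other way and their differences had an SD of 3.27, and H1-5 at 7.14 and 9.95, whereas H1-4 (13.38 and 13.28) and H1-2 (10.61 and 10.47) were not changed. Of the other variants, CENPA, the H3 of centromeres, was at 9.97 and 10.04, and H2BW1, an H2B of testis, was at 7.46 and 7.27.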

How the data were processed

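HCT116-WT and HCT116-DKO were each measured on 1 Affymetrix Human Exon 1.0 ST array. The authors deposited 1 table of log2 probe set signals; the submitters' processing notes name RMA, and the methods name Affymetrix Expression Console for background correction, normalization and summary. No source used here states the set of arrays that was normalized jointly. Probe sets were named through the platform annotation, and older symbols were updated through RefSeq (77 of 77 core histone symbols matched, 5 of them by a rule for ambiguous synonyms). Of 287329 probe sets, 261481 named 1 gene, 8947 named several and 16901 none. Gene levels came from a median polish of a gene's own probe sets, and 1 probe set was enough, since most core histone genes have few.

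Array medians were 8.28 and 8.37, and with 1 array per group the number of arrays limits the precision. No test was run, because neither group has a replicate, and counts follow the rule of size stated in the text. The procedure was tested on simulated data, with differences of 2 or 3 in size placed in genes well above background with at least 3 probe sets. Genes with 1 or 2 probe sets, such as the 3 changed clustered genes, were not covered by this. The members, gene lists and named genes were chosen with earlier results of these data known. Genes named were those past the rule, all replacement variants, in each clustered family the 3 with the highest mean level and the 2 with the largest difference in each direction above background, testis histones, and in each list the changed genes or else the 2 with the highest mean level. In all, 15 alternatives were computed, and 3 were added for shared probe sets after seeing the data. Python 3.11.15, pandas 2.3.3, numpy 2.4.6 and matplotlib 3.10.9 were used. Protein sequences were not used here.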

Additional observations from a re-analysis of the deposited data

Results flagged for a closer look

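A probe set with no gene name was higher in HCT116-DKO and was flagged because it lies outside the measurements of named genes. It is 1 of 14 unnamed probe sets whose IDs fall between those of neighbouring core histone probe sets, in the higher-numbered HIST1 block next to probe sets listed first for HIST1H3D. It read 7.28 in HCT116-WT and 8.40 in HCT116-DKO, a difference of 1.12. Both values exceeded the background from gene levels (7.08 and 7.30). By the background of single olfactory receptor probe sets (7.65 and 7.68), only the HCT116-DKO value did. The unnamed probe set with the preceding ID differed by 0.90 (7.33 and 8.23), and 0 of the 14 were lower by the rule.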

How the results depend on the processing

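With 1 array per line, leaving out an array leaves no comparison. No paired analysis was possible because each group has a single array. None of the 3 changed clustered genes changed sign under those of the 15 alternatives that held them. Ranges were 1.21 to 2.83 for HIST2H2BF, -2.58 to -0.20 for HIST1H2AH and -2.76 to -0.61 for HIST1H2BK. With 1 probe set each, HIST2H2BF and HIST1H2BK keep their differences by construction under other summaries, thresholds, shares or demands on background. Their sign under those settings is therefore no check. Of 537 values of the other members under the 15 alternatives 38 had another sign than reported, 18 of them in members above background in both arrays. Examples are HIST1H2BG (1.23, but -0.25 with probe sets of several genes kept) and H2AFJ (0.53, but -0.16 with odd-numbered probe sets). The median of clustered genes ranged from -0.09 to 0.22, and that of replacement variants from 0.01 to 0.13. The 0.22 arose with levels below background set to background, which gives 0.22 by construction to genes below it in both arrays. Some of the 38 sign changes arose in the same way. Among the other settings the median of clustered genes still had both signs (0.02 with the mean of probe sets), so its sign is not settled. Among clustered genes, 0 were higher and 0 lower when at least 3 probe sets were required, since the 3 changed genes have 1 or 2. The number of higher clustered genes was 2 when only probe sets above background were used (HIST1H2BB joined, at 3.20, and all genes lower numbered 141), 3 with no demand on background (5 lower), and 3 at a threshold of 0.58 (all genes 948 higher and 310 lower). The number of lower clustered genes was 1 with probe sets of several genes kept, where HIST1H2AH had -0.20, 1 with levels below background set to background, where HIST1H2BK had -0.61, and 1 at a threshold of 1.5 (all genes 281 higher and 32 lower). It was 0 with even-numbered probe sets only. With the median of probe sets in place of median polish 1 replacement variant was higher, H2AFJ at 1.29. The cause of these shifts was not tested beyond what each setting does by construction. Of the 537 values, 501 stayed within the SD over the gene's probe sets (0.25 for a single probe set), 26 moved further without passing the rule and 10 passed it. The 3 changed genes passed the rule in 36 of 40 values, but for HIST2H2BF and HIST1H2BK many of these repeat the reported difference by construction. Quantile normalization or median centring moved the median of all genes from 0.02 to -0.07. The counts of shared probe sets, 9 higher and 2 lower, were the same under both scalings and with a background from single olfactory receptor probe sets (7.65 and 7.68), settings chosen after seeing the data. What limits all values is the single array per line and the 1 or 2 probe sets behind most clustered genes, of which 16 were above background in neither array.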
